A study of Mus musculus with 28 samples.

Results

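The 6 mouse gliomas of the series were split into 2 sets chosen by the deposited intensity of Gabra6, read from the brightest of its probe sets. Gabra6 encodes a GABA-A receptor subunit of cerebellar granule neurons. Gabra6 was over 100 in 3 gliomas (the Gabra6-high set, arrays B7, B2 and A4) and 100 or less in the other 3 (the Gabra6-low set, arrays C3, B1 and B3). These 6 arrays were compared with 12 normal brain pieces and 10 medulloblastomas of the same series, 28 arrays in all, each measured on an Affymetrix Mouse 430 2.0 chip. The normal brains came from hGFAP-Cre p53-/- mice, 5 with Rictor+/-, 5 with Rictor-/- and 1 with no targeted Rictor allele, and 1 came from normal mice. The medulloblastomas came from hGFAP-Cre p53-/- mice, 5 with Rictor-/-, 2 with Rictor+/- and 3 with no targeted Rictor allele. All 6 gliomas came from p53-/- mice with the hGFAP-Cre transgene, a recombinase driven by the human GFAP promoter in neural progenitors and glia. In the Gabra6-high set, B7 and B2 were Rictor+/- and A4 carried no targeted Rictor allele. In the Gabra6-low set, C3 was Rictor-/- and B1 and B3 were Rictor+/-. Rictor is a core component of mTORC2, a protein kinase complex. B7 and B3 have titles with the prefix YZ2 and the other 4 gliomas the prefix YZ, so each set held 1 YZ2 array and 2 YZ arrays. By genotype A4 and C3 came from different animals than each other and than the Rictor+/- gliomas. Nothing in the labels says whether the Rictor+/- gliomas B7, B2, B1 and B3 came from separate animals. A p-value therefore measures only the spread between these arrays, part of which may be technical.

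In the cerebellar cortex, granule neurons are the small, densely packed excitatory cells of the inner layer, and Purkinje cells are the large inhibitory neurons that carry the output of the cortex. Bergmann glia are the radial astrocytes that wrap Purkinje cell dendrites. Many gliomas resemble oligodendrocyte precursor cells, the dividing glial cells marked by Pdgfra, Olig2 and Sox10. A piece of tumour cut from a brain can hold normal tissue beside tumour cells. On an array of a bulk piece, fewer cells of a type and less RNA per cell cannot be told apart.

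The split used Gabra6, so the values of Gabra6 and of the genes that mark the same cells are given as a description, with no test. Gabra6 read 1014, 674.9 and 203.5 in the Gabra6-high gliomas B7, B2 and A4, against 30.2, 25 and 7.3 in the Gabra6-low gliomas C3, B1 and B3. The member nearest to the cut of 100 from above was A4, at 203.5, and the nearest from below was C3, at 30.2. Cbln3, a secreted partner of cerebellin in granule neurons, read 518.6, 477.8 and 106.8 in the Gabra6-high set, against 22.5, 15.0 and 4.4 in the Gabra6-low set. Neurod1, a transcription factor of differentiating granule neurons, read 735, 693.8 and 140.7 in the Gabra6-high set, against 32.5, 18.9 and 22.9 in the Gabra6-low set. Pcp2, a G protein modulator of Purkinje cells, read 590.5, 522.8 and 129.3 in the Gabra6-high set, against 34.5, 30.5 and 11.7 in the Gabra6-low set. Within the Gabra6-high set all 4 markers were highest in B7, then B2, then A4, and the Gabra6-low arrays lay below A4 for every marker. Cbln3, Neurod1 and Pcp2, which the cut did not use, thus also lay above their Gabra6-low levels in every Gabra6-high glioma, by the least in A4.

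**Figure D1:**
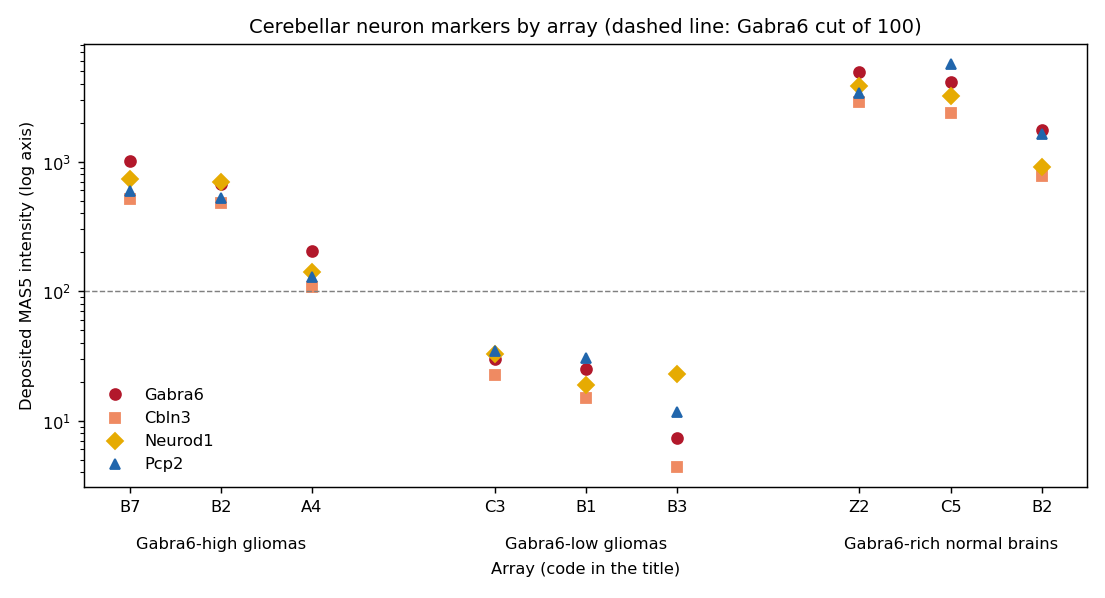
Deposited intensity (log axis) of Gabra6, Cbln3, Neurod1 and Pcp2 on each array of the Gabra6-high gliomas, the Gabra6-low gliomas and the 3 normal brains richest in Gabra6, with the Gabra6 cut of 100 as a dashed line. A4, at 203.5 for Gabra6, lies between the other Gabra6-high gliomas and the Gabra6-low gliomas.

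The normal brains richest in Gabra6 gave a scale for these levels. They were the 3 pieces with Gabra6 over 1000, coded Z2 (labelled as from normal mice), C5 (hGFAP-Cre, p53-/-, Rictor-/-) and B2 (hGFAP-Cre, p53-/-, Rictor+/-), with an average of 3604 for Gabra6, against a median of 8.2 in the other 9 normal brains. Each of the 10 granule neuron genes analysed was read as a share of the way between the mean Gabra6-low glioma and the mean of these 3 brains. B7 had a median share of 20.9%, B2 of 17.6% and A4 of 2.67%. Gabra6 alone gave 27.7%, 18.3% and 5.10% for the same arrays, and the Purkinje cell list gave 16.6%, 12.8% and 1.47%. The choice of brain moved these shares: against normal brain B2 alone the granule neuron list gave 57.8%, 38.0% and 10.6%, and against Z2 alone 14.9%, 12.5% and 1.64%. B7 held the largest and A4 the smallest share under each of these choices.

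Normal brain pieces carry the same codes as 4 of the gliomas, although the labels do not say that a shared code means a shared mouse. The glioma coded B7 had Gabra6 at 1014, while the normal piece coded B7 had 5.1. The glioma coded B2 had 674.9, while the normal piece coded B2 had 1740. The gliomas coded C3 and B1 had 30.2 and 25, beside 10.6 and 1.6 in the normal pieces of those codes. A normal piece rich in Gabra6 thus existed for B2 and not for B7.

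Outside the split itself, the gliomas did not form 2 tight sets over all genes. Pearson correlations of log2 levels across genes, which are not independent replicates, ran between 0.914 and 0.922 within the Gabra6-high set, between 0.896 and 0.935 within the Gabra6-low set, and between 0.907 and 0.938 across the sets. The highest value of all was that of B7 with C3, which lie on opposite sides of the cut. The defining markers of oligodendrocyte precursors were high in all 6 gliomas, and the sets overlapped. Pdgfra, the PDGF receptor of oligodendrocyte precursors, read 3942, 2972 and 3821 in the Gabra6-high set, against 4546, 4355 and 3168 in the Gabra6-low set, beside a median of 341.1 in the 9 normal brains poor in Gabra6. Sox10, a master regulator of oligodendrocytes, read 1047, 808.9 and 1119 in the Gabra6-high set, against 943.6, 1149 and 946.9 in the Gabra6-low set, and no medulloblastoma exceeded 97.0.

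Over all genes, limma tested 13926 genes for a difference between the 3 Gabra6-high and the 3 Gabra6-low gliomas and called 0 of them at an adjusted p under 0.05 (0% called), with a smallest adjusted p of 0.607. An unadjusted p under 0.05 was reached by 460 genes (3.3%), of which 261 were higher and 199 lower in the Gabra6-high set. No gene below is therefore a called difference, and each is given by its values. With 3 arrays against 3, an exact two-sided permutation test of a single gene cannot go below 0.1. A gene is described here as non-overlapping where all 3 Gabra6-high arrays lay on one side of all 3 Gabra6-low arrays. By that measure 491 genes lay higher in the Gabra6-high set (3.53% of those tested) and 691 lay lower (4.96%). Labels drawn at random would separate a gene fully, in either direction, with a probability of 0.1. The shares of higher and lower genes together do not exceed that, so non-overlap alone does not mark a gene as different. Differences are given on the log2 scale of intensity plus 6.3, as Gabra6-high minus Gabra6-low with the standard error (SE) of the fit, which compresses the differences of dim genes.

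The higher non-overlapping genes were richer in genes of the Gabra6-rich normal brains. Gabra6 chose both the glioma sets and these brains, so genes that go with Gabra6 rise in both by that choice. The counts below include the granule and Purkinje cell genes and are a description, with no test. Among the 491 higher genes, 80 (16.3%) were more than 1 log2 unit above the other normal brains in the 3 Gabra6-rich ones, against 592 of all 13926 genes (4.25%). Among the 691 lower genes, 9 (1.3%) were that far above and 58 (8.39%) that far below.

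**Figure D2:**
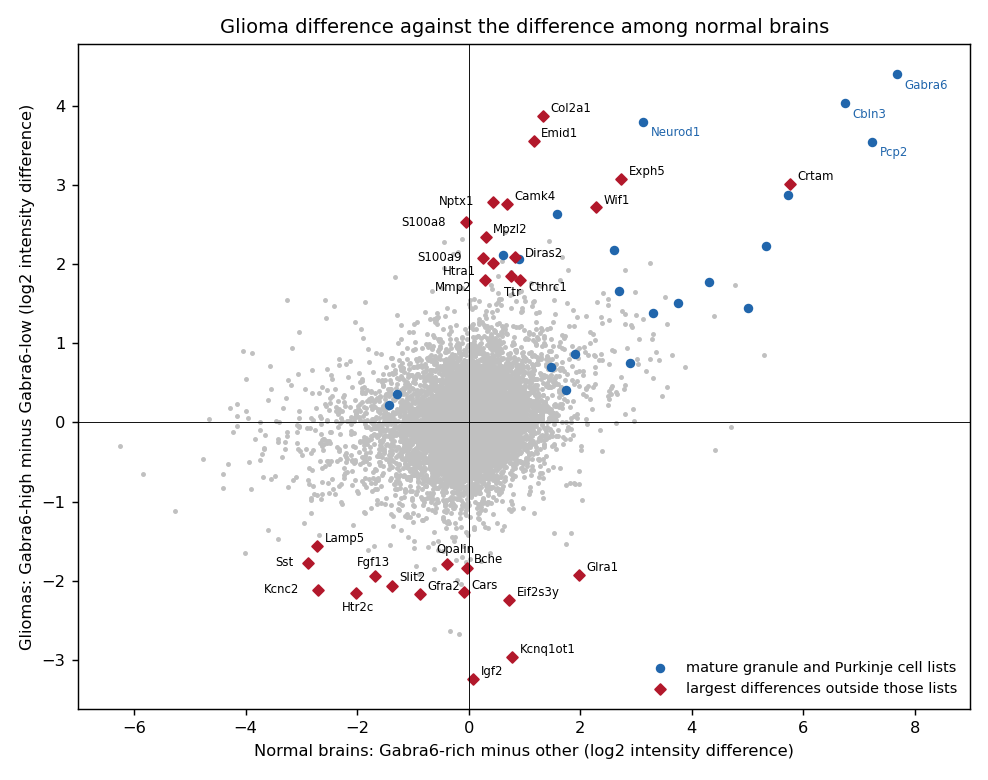
Each grey point is 1 of 13926 genes, with the difference between Gabra6-rich and other normal brains on the x axis and the difference between Gabra6-high and Gabra6-low gliomas on the y axis (log2 intensity). Granule and Purkinje cell genes (blue) reach the upper right. Col2a1, Emid1, Nptx1, Igf2 and Kcnq1ot1 (red diamonds) lie high or low on the y axis within 2 log2 units of 0 on the x axis. Col2a1 (1.34), Emid1 (1.17) and Wif1 (2.29) lie to the right of 0 on the x axis.

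The cerebellar neuron lists are described without a test, since Gabra6 chose the arrays. Of the 10 granule neuron genes tested, 7 were non-overlapping and higher (beside 3.53% of all genes tested, which also stands beside the other counts of this paragraph), 3 overlapped, and the median difference was 2.09, beside a median of -0.02 over all genes tested. Cbln1, the cerebellin that granule neurons release onto Purkinje cells, read 843.8, 508.9 and 135.2 in the Gabra6-high set, against 127.9, 101.7 and 99.8 in the Gabra6-low set. A4 was near the Gabra6-low arrays for Cbln1. Of the 11 Purkinje cell genes tested, 5 were non-overlapping and higher and the median was 1.51. Ppp1r17, a phosphatase inhibitor of Purkinje cells, read 271.6, 159.5 and 36.9 in the Gabra6-high set, against 13, 9.7 and 10 in the Gabra6-low set. Car8, another Purkinje cell gene, was bright in several gliomas of both sets and overlapped, at 1718, 633.9 and 1066 in the Gabra6-high set and 883.9, 299.0 and 206.9 in the Gabra6-low set. Of the 7 genes of other cerebellar neurons, 1 was non-overlapping, Eomes, a transcription factor of unipolar brush cells, at 27.4, 13.3 and 5.0 in the Gabra6-high set and 4.3, 1.0 and 1.4 in the Gabra6-low set.

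Several of the largest differences outside those lists were of genes that the Gabra6-rich normal brains also held at a high level. Crtam, a cell adhesion protein also known from T cells, read 234.6, 239.3 and 17.7 in the Gabra6-high set, against 6.9, 7.4 and 8.5 in the Gabra6-low set, and averaged 744.4 in the Gabra6-rich brains. Adding the array's granule neuron share of those brains to the mean Gabra6-low glioma would give 161.5, 137.0 and 27.3 for B7, B2 and A4. Without A4, limma called Crtam (adjusted p = 0.0359). Crtam had a median of 5.5 in the normal brains poor in Gabra6, so it goes with the gene that chose the sets. That call is therefore not independent support. Exph5, a Rab27 effector, read 252.2, 210.0 and 36.2 in the Gabra6-high set, against 9.5, 5.2 and 15.5 in the Gabra6-low set, and the same mixing would give 221.9, 188.1 and 37.2. For both genes the Gabra6-high arrays thus lay in the order B7 and B2 over A4, with A4 close to the mixed level for Exph5. Camk4, a calcium and calmodulin-dependent kinase abundant in granule neurons, read 430.8, 375.4 and 106.0 in the Gabra6-high set, against 63.3, 10.5 and 44.8 in the Gabra6-low set. Another Camk4 probe set had a difference of -0.26. Diras2, a Ras-like GTPase of neurons, read 828.9, 591.8 and 356.2 in the Gabra6-high set, against 112.5, 103.4 and 175.1 in the Gabra6-low set. Camk4 and Diras2 were high in normal brain at large, with averages of 1846 and 2628 in the Gabra6-rich brains and medians of 1059 and 1472 in the Gabra6-poor ones.

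To set such genes apart, the mixed level was computed for every gene and taken off each Gabra6-high array as a log2 offset. After the offset limma again called 0 of 13926 genes (0% called), with 308 genes at an unadjusted p under 0.05 and a smallest adjusted p of 1. The median difference became 0.03 for the granule neuron list, which set the shares, so this follows from how the offset was built. For the Purkinje cell list, which did not set them, the median became -0.10. Gabra6 chose the glioma sets and the brains used for mixing, so that value is no independent check. The difference of Crtam became 0.27, Exph5 0.15, Camk4 0.35 and Diras2 0.45. Of the 98 higher non-overlapping genes with a difference over 1 log2 unit, 28 still exceeded 1 in the same direction, and of the 62 lower ones 41 did. By deposited intensity 45 of the 98 genes were highest in B2, 36 in B7 and 17 in A4. Of the 28 genes left, 16 were highest in B2, 8 in A4 and 4 in B7, again by deposited intensity and not by level after the offset. The offset shifted B7 the most by its construction.

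The largest of those 28 differences after the offset, among genes with a full name, were of Col2a1, Emid1 and Wif1, which encode matrix or secreted proteins. Each was also higher in the Gabra6-rich normal brains than in the other normal brains, by 1.34, 1.17 and 2.29 log2 units. Gabra6 chose those brains and the glioma sets, so these genes also go with Gabra6 among the normal brains. Col2a1, the chain of type II collagen, read 44.3, 284.8 and 1387 in the Gabra6-high set, against 10.7, 18.3 and 9.3 in the Gabra6-low set. A4, with the lowest Gabra6 of its set, was highest for Col2a1 and B7 lowest, the reverse of the marker order. The difference was 3.87 ± 1.06 (SE, limma adjusted p = 0.999) and 3.83 after the offset. Without A4 it was 2.70, without B7 it was 5.09, and with a genotype term in the fit it was 2.63. A4 and C3 were each the only glioma of their genotype, so that term left only B7 and B2 against B1 and B3. The Gabra6-rich brains averaged 16.8 for Col2a1, and the highest of the 10 medulloblastomas read 54.1.

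Emid1, which encodes an extracellular protein with an EMI domain, read 138.7, 431.7 and 221.4 in the Gabra6-high set, against 8.5, 11.7 and 26.8 in the Gabra6-low set. Each Gabra6-high glioma exceeded all 12 normal brains, which reached at most 62.1, and all 10 medulloblastomas, which reached at most 63.0. The difference was 3.56 ± 0.48 (SE, limma adjusted p = 0.863) and 3.27 after the offset. In the fit that took the spread from all 28 arrays, Emid1 was called with a limma adjusted p of 0.00575, and of 0.0244 after the offset. Most of that spread comes from the normal brains and medulloblastomas, where Emid1 was dim. Those p-values therefore do not measure the spread between gliomas.

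Wif1, a secreted antagonist of WNT ligands, read 263.2, 437.2 and 768.8 in the Gabra6-high set, against 78.2, 70.8 and 43.8 in the Gabra6-low set. Wif1 was again highest in A4 and lowest in B7 among the Gabra6-high arrays. The difference was 2.72 ± 0.42 (SE, limma adjusted p = 0.863) and 2.67 after the offset, since the Gabra6-rich brains averaged only 80.8. In medulloblastomas Wif1 ran between 28.3 and 496.9. Cthrc1, a secreted protein of remodelling tissue, read 163.1, 160.0 and 359.3 in the Gabra6-high set, against 68.7, 67.5 and 38.2 in the Gabra6-low set. Mmp2, a gelatinase that cuts matrix collagens, read 32.1, 178.7 and 104.1 in the Gabra6-high set, against 10.3, 25.6 and 28.7 in the Gabra6-low set. For Mmp2 the gap between B7 and the nearest Gabra6-low array, B3, was small.

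Htra1, a secreted serine protease abundant in astrocytes, read 693.1, 1182 and 1829 in the Gabra6-high set, against 318.6, 106.2 and 620.1 in the Gabra6-low set. The sets overlapped for Htra1 after the offset, when the difference was 1.53 beside 2.02 before it. Nptx1, a secreted neuronal pentraxin of synapses, was even across the Gabra6-high arrays at 530.9, 708.7 and 559.2, against 96.6, 48.7 and 109.9 in the Gabra6-low set. Its difference was 2.79 ± 0.32 (SE, limma adjusted p = 0.607) and 1.23 after the offset. In A4 the mixed level of Nptx1 was 125.9, well below the 559.2 read there. Nptx1 was called in the fit with the spread of all 28 arrays (limma adjusted p = 0.0272), and not after the offset. That p-value too rests mostly on the spread of arrays other than gliomas.

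S100a8 and S100a9, which encode the paired calcium-binding proteins of neutrophils, were highest in B2. S100a8 read 36.9, 365.0 and 70.8 in the Gabra6-high set, against 15.4, 19.2 and 5.4 in the Gabra6-low set, and S100a9 read 19.1, 138.3 and 31.2 in the Gabra6-high set, against 6.5, 14.0 and 0.7 in the Gabra6-low set. Normal brains poor in Gabra6 reached 121.6 for S100a8 and 68.4 for S100a9, above B7 and A4. Mpzl2, an epithelial adhesion protein, was likewise a B2 gene, at 16.1, 153.4 and 12.2 in the Gabra6-high set, against 0.6, 0.5 and 4.4 in the Gabra6-low set.

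**Figure D3:**
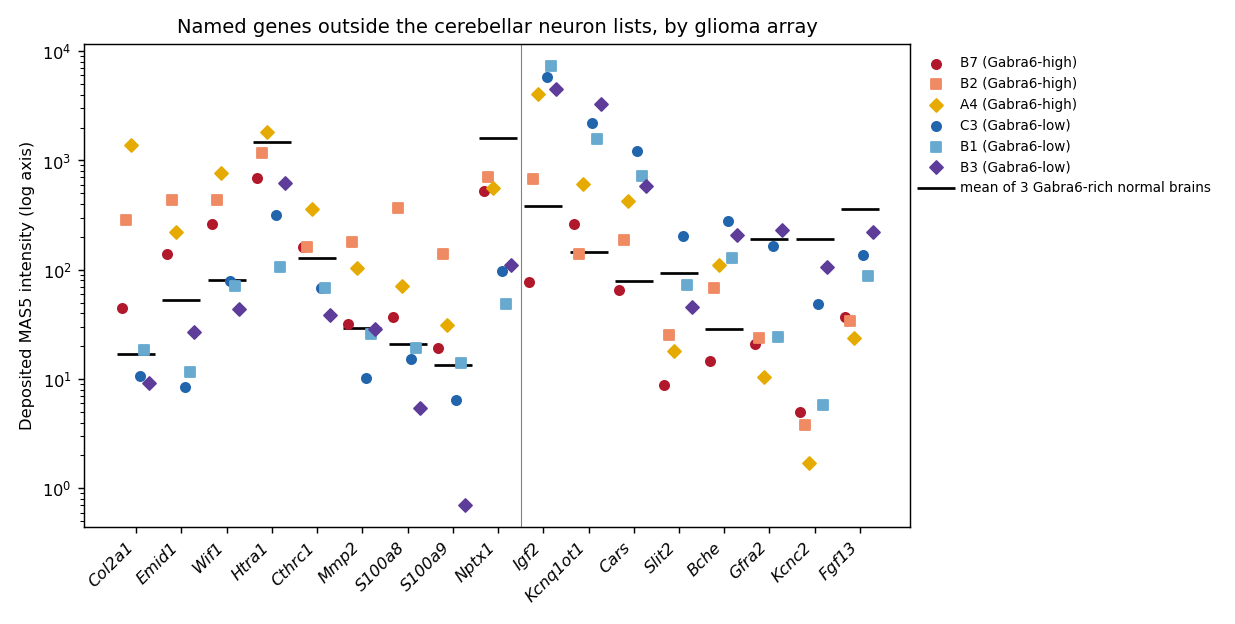
Deposited intensity (log axis) of 17 named genes on each of the 6 glioma arrays, Gabra6-high to the left of Gabra6-low within each gene, with the mean of the 3 Gabra6-rich normal brains as a black bar. Left of the line the Gabra6-high arrays lie above the Gabra6-low arrays, with A4 highest for Col2a1 (1387), Wif1 and Htra1. Right of it they lie below, with B7 lowest for Igf2 (77.1).

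Among the lower genes, the largest difference was that of Igf2, the imprinted insulin-like growth factor of fetal tissue. Igf2 read 77.1, 670.8 and 4060 in the Gabra6-high set, against 5863, 7323 and 4460 in the Gabra6-low set. The difference, -3.24 ± 1.22 (SE, limma adjusted p = 0.999) and -3.03 after the offset, rested on B7 and B2, since A4 lay close to B3. Without B7 the difference was -1.80, and without A4 it was -4.60. The 12 normal brains ran between 86.0 and 1208, so that B7 lay below all of them and B2 among them.

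Kcnq1ot1, the imprinted antisense RNA that silences neighbouring genes on the paternal chromosome, read 261.7, 138.6 and 606.5 in the Gabra6-high set, against 2188, 1571 and 3258 in the Gabra6-low set. The difference was -2.96 ± 0.53 (SE, limma adjusted p = 0.863) and -2.76 after the offset. Kcnq1ot1 overlaps the sense gene Kcnq1, and whether its probe set separates the strands was not tested. Cars, a cysteinyl-tRNA synthetase, read 65.7, 188.9 and 424.2 in the Gabra6-high set, against 1209, 726.7 and 585.0 in the Gabra6-low set, with a difference of -2.15.

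Igf2, Kcnq1ot1 and Cars lie close together on distal mouse chromosome 7. Their neighbours were therefore read in the gene order of RefSeq (GRCm38.p6), a window chosen after the values were seen. Of the 40 genes tested between Tspan4 and the chromosome end, 6 were non-overlapping and lower (Lsp1, Igf2, Kcnq1ot1, Nap1l4, Cars and Mrgprf), beside 4.96% of all genes tested, and 1 was higher (Ins2, at most 19.3 on any glioma), beside 3.53%. Igf2, Kcnq1ot1 and Cars, whose falls led to the window, are among the 6 by that choice. The median difference of the 40 genes was -0.71, and 32 of them were negative. Nap1l4, a histone chaperone, read 368.5, 1031 and 2034 in the Gabra6-high set, against 2506, 3285 and 3506 in the Gabra6-low set. Cdkn1c, the imprinted CDK inhibitor p57, read 13.8, 99.3 and 209.6 in the Gabra6-high set, against 222.4, 156.8 and 456.0 in the Gabra6-low set, and overlapped.

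Read array by array, part of this stretch separated B7 from the other gliomas more than it separated the sets. Over the 15 genes between Mrpl23 and Osbpl5, a span also chosen after the values were seen, 12 were lowest in B7. Over all 40 genes of the window 19 were lowest in B7. The share of all genes tested that were lowest in B7 was not computed. Relative to the mean of the 12 normal brains, the median log2 level of the 15 genes was -0.63 for B7, 0.71 for B2 and 1.74 for A4, against 1.82 for C3, 1.73 for B1 and 2.60 for B3. A4 thus lay with the Gabra6-low gliomas, and B7 alone was below normal brain. Further along, around Ccnd1, the gene of cyclin D1, the pattern was not shared. Ccnd1 read 5661, 6668 and 3410 in the Gabra6-high set, against 6909, 8011 and 5655 in the Gabra6-low set, beside 292.8 in the Gabra6-rich brains. Ano1, a chloride channel gene near Ccnd1, was highest in B7, at 565.5, 54.9 and 54.3 in the Gabra6-high set and 70.9, 22.5 and 31.2 in the Gabra6-low set. Fgf3, a growth factor gene beside it, read 263, 254.4 and 13.3 in the Gabra6-high set, against 44.2, 10.8 and 2.5 in the Gabra6-low set.

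**Figure D4:**
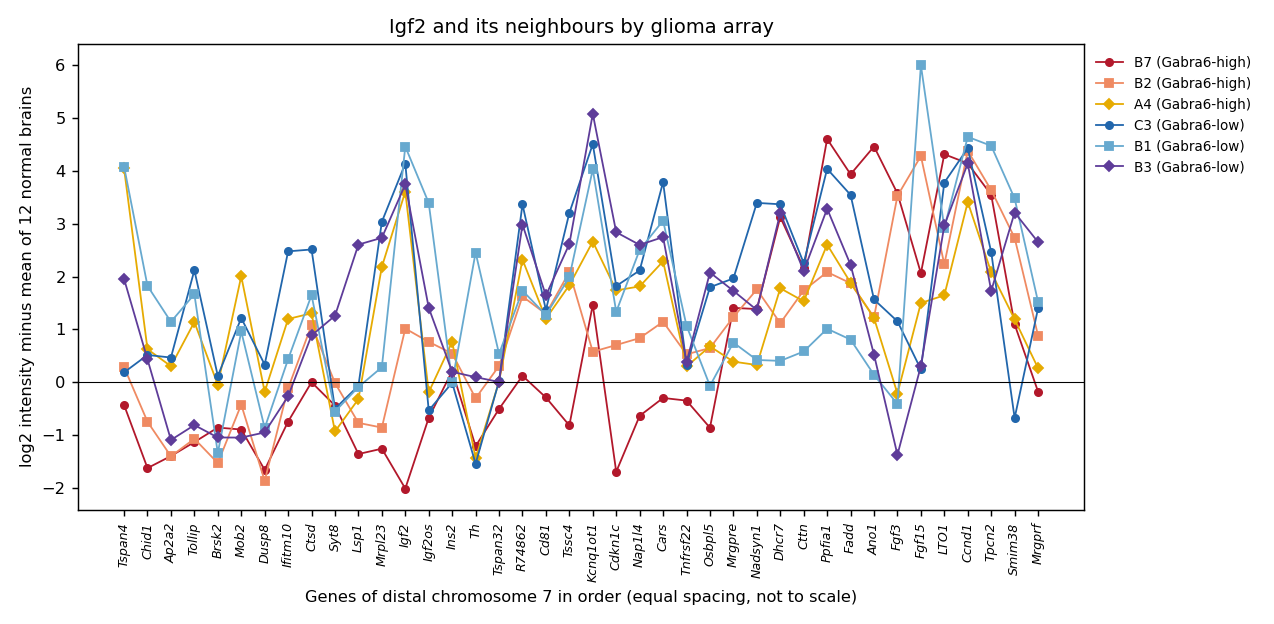
Level of 40 neighbouring genes of distal chromosome 7 on each glioma array, as log2 intensity minus the mean of the 12 normal brains, with genes in chromosome order at equal spacing. B7 is lowest for 12 of the 15 genes between Mrpl23 and Osbpl5 (median -0.63), but not for Kcnq1ot1. Over all 40 genes B7 is lowest for 19. Around Ano1 B7 is among the highest.

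The other genes with large lower differences described next were brightest in B3 or C3. Slit2, a repulsive axon guidance ligand, read 8.8, 25.4 and 18 in the Gabra6-high set, against 203.2, 72.7 and 45.6 in the Gabra6-low set. Bche, butyrylcholinesterase, read 14.6, 67.6 and 109.6 in the Gabra6-high set, against 277.1, 128.0 and 208.8 in the Gabra6-low set. Fgf13, an intracellular regulator of sodium channels, read 36.9, 34.2 and 23.7 in the Gabra6-high set, against 135.8, 86.9 and 220.0 in the Gabra6-low set. The differences were -2.07, -1.84 and -1.95, and the gap between the sets was narrow for Bche, with A4 at 109.6 and B1 at 128.0. Gfra2, the neurturin receptor, read 20.8, 24.0 and 10.4 in the Gabra6-high set, against 164.8, 24.1 and 230.9 in the Gabra6-low set. Kcnc2, a fast potassium channel of interneurons, read 5.0, 3.8 and 1.7 in the Gabra6-high set, against 48.2, 5.8 and 105.4 in the Gabra6-low set. B1 was at the level of the Gabra6-high arrays for both.

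The glycine receptor gene Glra1 (97.2), the interneuron peptide gene Sst (125.9), the myelin gene Opalin (166.8), Htr2c (186.4) and Lamp5 (140.5) were each highest in B3. B3 also stood apart from the other 5 gliomas in genes of body position, which were chosen after their values were seen and did not all pass the filter on low levels. Hoxb5 read 226.0 in B3 and at most 1.0 in any other glioma, and Hoxc4 read 84.8 in B3 and at most 6.8 in any other. The Gabra6-rich normal brain B2 read 252.4 for Hoxb5 and 157.5 for Hoxc4, and the 9 Gabra6-poor brains at most 0.6 and 2.1. Slc6a5, the glycine transporter of hindbrain and spinal neurons, read 68.2 in B3 and at most 17.4 in the other gliomas. Some other Hox genes of the list did not share that gap. Of 13 Hox genes 11 were highest in B3, but Hoxb7 only at 11.1, where B7 read 8.4, and Hoxa2 was lowest in B3, at 16.3. Hoxa3 read 49.2 in B3, within the range of the other gliomas, and Hoxa5 read 347.3 in B3 and between 113.4 and 261.2 in the others. The positional genes Hoxb5 and Hoxc4 of the posterior hindbrain and spinal cord were high in 1 array of the Gabra6-low set, and their part in the differences above was not tested. Eif2s3y, a gene of the Y chromosome, was in the list of largest lower differences only through B3, which read 402 where the other 5 gliomas read at most 3.7. Xist read 17.3 in B3 and between 3118 and 4491 in the others. Of the sex-linked list 2 genes were tested, Xist and Eif2s3y.

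Cell cycle genes set A4 apart from the other gliomas more than they set the Gabra6-high set apart. Of the 28 cell cycle genes tested, 12 were non-overlapping and lower (beside 4.96% of all genes), 16 overlapped, none was higher, and the median was -0.89 (-0.72 after the offset). Top2a, the topoisomerase of dividing cells, read 908.8, 1006 and 319.7 in the Gabra6-high set, against 1405, 2021 and 1230 in the Gabra6-low set. Mki67, the Ki-67 proliferation antigen, read 572.6, 620.1 and 168.0 in the Gabra6-high set, against 887.8, 790.2 and 968.2 in the Gabra6-low set. Plk1, a mitotic kinase, read 79.3, 86.9 and 24.7 in the Gabra6-high set, against 116.3, 136.3 and 133.2 in the Gabra6-low set. A4 was the lowest of the 6 gliomas for all 28 genes, with a median of -1.54 log2 units from the glioma mean, while B7 lay at 0.23 and B2 at -0.10, and C3, B1 and B3 lay at 0.54, 0.58 and 0.15. B7 thus lay above B3. Without A4 the list median was -0.37, and with the genotype term it was -0.27. A4 and C3 were each the only glioma of their genotype, so that term compared only B7 and B2 with B1 and B3. Without A4, 12 of 28 genes were again non-overlapping and lower, beside 10.2% of all genes lower and 8.37% higher. Ccne1, the G1 cyclin E1, read 48.9, 40.0 and 17.5 in the Gabra6-high set, against 86.3, 95.1 and 61.8 in the Gabra6-low set. A4 was also the one glioma with no targeted Rictor allele, so genotype and array cannot be told apart for it.

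In the glial lists the counts of non-overlapping members stand beside 3.53% of all genes higher and 4.96% lower. Of the 7 Bergmann glia genes, 2 were higher. Gdf10, a BMP-family ligand of Bergmann glia, read 112.1, 54.1 and 78.7 in the Gabra6-high set, against 19.9, 8.9 and 17.1 in the Gabra6-low set, and its difference of 2.01 became -0.32 after the offset. In A4 the mixed level of Gdf10 was 36.4, below the 78.7 read there. Slc1a3, the glutamate transporter GLAST, read 485.6, 1067 and 920.2 in the Gabra6-high set, against 447.9, 288.7 and 394.3 in the Gabra6-low set, although another of its probe sets had a difference of -0.09. Of the 14 astrocyte genes, 1 was higher (Glul, glutamine synthetase, at 2656, 3441 and 3588 in the Gabra6-high set and 1935, 1698 and 2394 in the Gabra6-low set), with a list median of 0.27. Of the 13 oligodendrocyte precursor genes, 1 was lower (Olig1, with a difference of -0.24), and the list median was -0.09.

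The 12 myelin genes were all negative, with a median of -0.58 and 1 non-overlapping member, Opalin. Their mean log2 level was 7.38, 7.62 and 6.52 in the Gabra6-high set, against 7.12, 6.65 and 9.58 in the Gabra6-low set, so B3 stood above the other 5 gliomas. The 13 interferon response genes were likewise all negative with 0 non-overlapping, and B1 stood out, with a mean log2 level of 9.97 beside 7.23, 7.90 and 6.17 in the Gabra6-high set and 6.39 and 7.99 in C3 and B3. Neither list separated the sets.

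**Figure D5:**
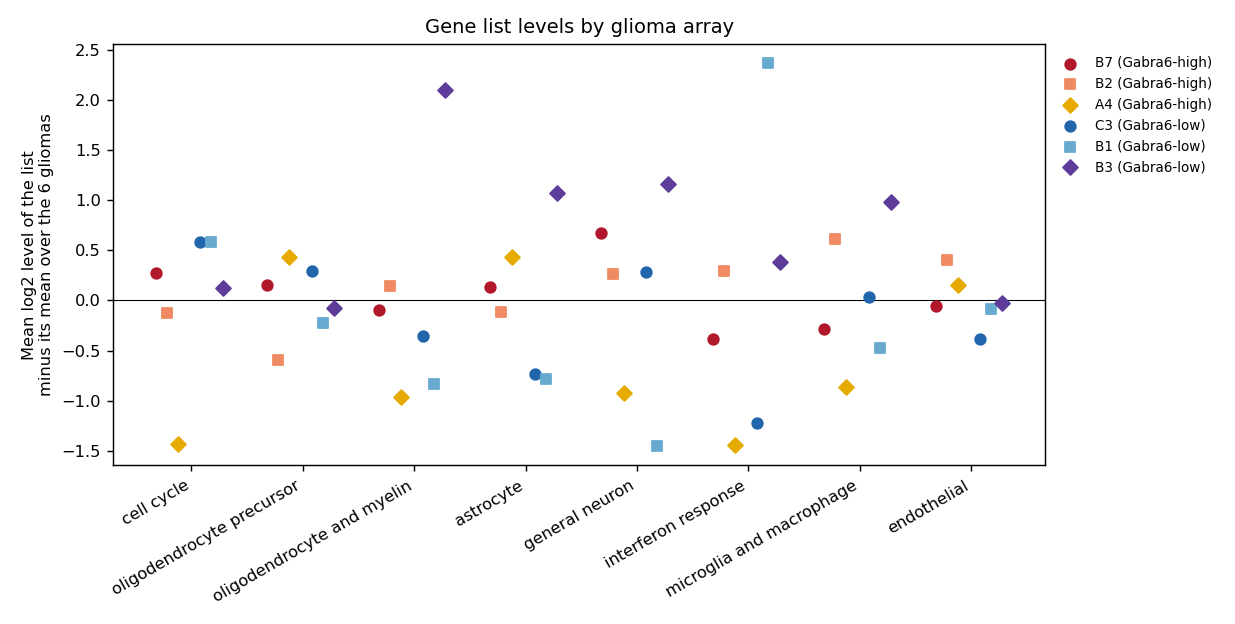
Mean log2 level of 8 gene lists on each glioma array, minus the mean of the list over the 6 gliomas, Gabra6-high to the left of Gabra6-low within each list. A4 is lowest for the cell cycle list, B3 highest for myelin (9.58 before centring) and B1 highest for interferon response (9.97 before centring).

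Genes of neurons in general overlapped between the sets. The 17 general neuron genes had 0 non-overlapping members and a median of 0.09, with a mean log2 level of 7.46, 7.04 and 5.85 in the Gabra6-high set, against 7.06, 5.33 and 7.94 in the Gabra6-low set. Snap25, a synaptic vesicle fusion protein, read 2328, 1446 and 467.4 in the Gabra6-high set, against 926.1, 141.5 and 1777 in the Gabra6-low set. The counts of the neuron and position lists stand beside 3.53% of all genes higher and 4.96% lower. Of the 12 forebrain neuron genes, 1 was higher and 2 lower, with a median of -0.33 and every glioma level of Drd1 and Tbr1 under 12. Of the 18 hindbrain position genes, 1 was higher, Zic2, a transcription factor of the dorsal neural tube and granule lineage, at 62.0, 137.2 and 50.6 in the Gabra6-high set and 11.1, 28.4 and 10.6 in the Gabra6-low set. Its difference was 1.92, and 0.67 after the offset. En2, an engrailed factor of midbrain and cerebellum, overlapped at 236.1, 226.9 and 39.8 in the Gabra6-high set and 156.9, 139.4 and 118.9 in the Gabra6-low set, so the Gabra6-low gliomas expressed it too. Of the 14 forebrain and midbrain position genes, 1 was lower (Lhx9, at most 17.3 on any glioma), and of the 14 granule precursor and SHH genes, 1 was lower (Nhlh1, at most 13.3).

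Choroid plexus genes showed a limit of the offset. Ttr, transthyretin, read 47.4, 146.5 and 22.0 in the Gabra6-high set, against 10.4, 11.4 and 10.7 in the Gabra6-low set, and averaged 6330 in the Gabra6-rich brains. Its difference was 1.84 as measured and -3.41 after the offset. The offset takes a share of the whole Gabra6-rich brain pieces, their Ttr included, and not of cerebellar neurons alone. Of the 12 choroid plexus and ependyma genes, Ttr was the 1 higher and Enkur the 1 lower.

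The blood, vessel and immune counts stand beside the same shares of all genes, 3.53% higher and 4.96% lower. The 4 neutrophil and lymphocyte genes tested had 2 higher (S100a8 and S100a9), the 17 microglia and macrophage genes had 0 non-overlapping with a median of -0.38, and the 13 endothelial genes had 0 with a median of 0.36. The 15 mural and mesenchymal genes had 0 with a median of 0.14, although Fn1, fibronectin, read 1165 in B2 and at most 392.6 in the other gliomas. No erythroid gene passed the filter on low levels.

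The signalling and metabolic lists had 0 to 2 non-overlapping members each, beside 3.53% of all genes higher and 4.96% lower, and nothing is read from counts that small. Rictor itself read 311.9, 239.3 and 375.7 in the Gabra6-high set, against 144.4, 192.5 and 315.5 in the Gabra6-low set, lowest in the Rictor-/- glioma C3, and overlapped with a difference of 0.54 ± 0.33 (SE). The 16 mTOR and AKT genes had 0 non-overlapping and a median of 0.12. Of the 18 growth factor receptor and ERK feedback genes, 1 was lower, Ntrk2, the BDNF receptor, at 500.7, 295.8 and 575.2 in the Gabra6-high set and 619.6, 646.6 and 930.8 in the Gabra6-low set. However, the other Ntrk2 probe sets that turned direction had differences of 0.44 to 0.68. Fgfr2, an FGF receptor named after its values were seen, read 2432 in B2 and at most 156.4 in the other gliomas. Of the 16 CDK inhibitor and p53 target genes, 2 were higher. Sesn1, a stress-induced inhibitor of mTORC1, read 481.7, 416.8 and 385.0 in the Gabra6-high set, against 224.9, 203.7 and 261.5 in the Gabra6-low set. Cdkn1b, the CDK inhibitor p27, read 690.2, 645.5 and 604.3 in the Gabra6-high set, against 428.7, 496.2 and 575.0 in the Gabra6-low set. The 16 hypoxia and glycolysis genes had 1 higher (Vegfa, at 135.6, 136.5 and 216.3 in the Gabra6-high set and 91.0, 117.2 and 123.0 in the Gabra6-low set). The 13 neural stem cell, 12 immediate early and 14 sterol synthesis genes had 0 non-overlapping, with medians of -0.11, 0.02 and 0.15.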

How the data were processed

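Per the labels' protocols, RNA of frozen tissue pieces was labelled with biotin, and tumour pieces were mostly tumour cells by histology. The authors deposited 1 linear intensity per probe set and array, made with MAS5 and GCOS per the submitters' processing notes, with versions not given in the sources used here. The number of arrays limits the precision. Of 45101 probe sets, 64 controls and those without exactly 1 gene symbol in the platform annotation were left out. Each of 18193 genes was read from its brightest probe set, and 13926 genes whose mean log2 level passed 3.885, the 30th percentile, were tested. limma 3.58.1 (lmFit and eBayes with trend, R 4.3.3) was run on log2(intensity + 6.3), two-sided, with Benjamini-Hochberg adjustment. The scripts were tested on simulated data, and tables and figures were made with pandas 2.3.3, numpy 2.4.6 and matplotlib 3.10.9 under Python 3.11.15.

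The mixing offset is the log2 ratio of a mixed level (the mean Gabra6-low glioma with the array's granule neuron share replaced by the mean of the 3 Gabra6-rich normal brains) to the mean Gabra6-low glioma. Named genes were the 4 markers, the 12 largest non-overlapping differences in each direction outside the cerebellar neuron lists, 8 in each direction after the offset, up to 4 non-overlapping members of each list (or else the 2 brightest), and Rictor. Other genes were chosen after their values were seen. The members and lists were chosen with earlier results of these data known. Alternatives covered the pseudocount, filter, normalization, genotype, title prefix, spread, probe set, share, reference brain, a Gabra6 gradient and each array left out.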

Additional observations from a re-analysis of the deposited data

Results flagged for a closer look

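A single array stood apart from the other 5 gliomas in 6 of the 76 named genes examined. On the log2 scale its gap to the nearest of those gliomas passed Dixon's critical value. Chance alone marks about 1 in 20 such groups, so with 76 genes examined several of the 6 may be due to chance. B3 was that array for Eif2s3y (402, with the others between 0.3 and 3.7), for Lamp5 (140.5, with the others between 0.3 and 8.1) and for Nhlh1 (13.3, with the others between 6.7 and 8.4). A4 was the lowest for Mki67 (168, with the others between 572.6 and 968.2) and for Plk1 (24.7, with the others between 79.3 and 136.3). B2 was the highest for Fn1 (1164.6, with the others between 241.7 and 392.6).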

How the results depend on the processing

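limma called 0 genes between the sets as reported and under every alternative but 3. Without A4, 2 genes were called (Crtam, adjusted p = 0.0359, and the marker Neurod1), so leaving out an array gave 0 to 2. Crtam and Neurod1 go with Gabra6 among the normal brains, and Gabra6 chose the sets, so these 2 calls are not independent support. With the spread taken from all 28 arrays 2 were called (Emid1 and Nptx1). Most of that spread comes from normal brains and medulloblastomas, so calls of that fit are not read as support for a difference between gliomas. With log2 Gabra6 as a numeric term 4 were called, the markers Gabra6, Cbln3, Neurod1 and Pcp2. That fit sets Gabra6 against itself and against other cerebellar neuron markers, so its 4 calls are not read as support. After the mixing offset, 1 gene was called with the spread of all 28 arrays (Emid1) and 0 under the other alternatives. Leaving out an array, an alternative added after seeing the data for these counts, leaves fewer arrays to overlap, and the count of non-overlapping genes then ran between 968 and 1356 for higher genes and between 1140 and 1539 for lower genes. Quantile normalization and the filters kept it within 1.5 times. No paired analysis was possible because the labels give the 2 sets no shared replicate numbers.

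Some named genes, none of them called, turned direction, and the cause was not tested. With an array left out, differences ran between -0.139 and 1.66 for Snap25, -0.204 and 0.164 for Map2, -0.046 and 0.374 for Sox4, -0.322 and 0.332 for Sgk1, -0.642 and 0.0312 for Ctss, -0.769 and 0.277 for Csf1r, -0.378 and 0.742 for Fn1, -0.654 and 0.558 for Egr1, -0.119 and 0.852 for Dusp1, -0.0837 and 0.342 for Hmgcs1, and -0.241 and 0.112 for Fdft1. With the genotype term the difference was 0.26 for Map2, -0.0273 for Sox4, -0.0655 for Sgk1, -0.659 for Dusp1 and -0.177 for Hmgcs1. That term left only B7 and B2 against B1 and B3. Within the YZ arrays it was -0.049 for Sox4, 0.0627 for Ctss, 0.288 for Csf1r and 0.17 for Egr1. Along log2 Gabra6 the slope was 0.0112 for Map2, -0.0375 for Sgk1, -0.0107 for Dusp1 and -0.00947 for Hmgcs1. After quantile normalization Map2 was at 0.0265. Other probe sets gave -0.263 for Camk4, -0.0881 for Slc1a3, 0.145 for Map2, -0.0459 for Sox4, 0.489, 0.443 and 0.68 for Ntrk2 and 0.0676 for Fdft1.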
